A study of Mus musculus with 6 samples.

Results

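The mRNAs of S100 proteins were measured in mesenchymal and neural crest stem cells cultured from mouse bone marrow. The members were 9 listed genes of the family, S100a1, S100a3, S100a4, S100a6, S100a10, S100a11, S100a13, S100a16 and S100b, each represented by the probe sets annotated to that gene alone. This rule found 13 probe sets for 8 of the 9 genes, out of 45101 probe sets on the array. S100a11 had none, because its probe set is annotated to 3 genes.

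The mesenchymal stem cells (MSC) and the neural crest stem cells (NCSC) were each measured on 3 arrays. Per the labels, all samples came from the bone marrow of adult female mice aged 10 weeks, on a mixed C57BL/6 and SV129 background, genotype wnt1/CRE-R26R-lacZ. All groups therefore carried the same alleles: a Cre recombinase under Wnt1 control and a lacZ reporter at the R26 locus that Cre switches on, a combination used to mark descendants of the neural crest. Cells were untreated and had been kept in Mesencult for at least 5 passages before clones were picked. The labels call the arrays of a cell type biological replicates without saying whether they came from separate animals or clones, so the spread behind each p-value is that of these samples alone and may be technical. A difference between clones and one between cell types cannot be told apart if each type is 1 clone.

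S100 proteins are small calcium-binding proteins of vertebrates that work as dimers. Each subunit holds a pair of EF-hands, the helix-loop-helix motif that binds calcium, and calcium opens a hydrophobic surface on which other proteins dock. Some members also act outside the cell on receptors such as RAGE. S100b is a classical marker of Schwann cells and other glia, S100a4 is widely used as a marker of fibroblasts, and S100a8 and S100a9 are abundant in neutrophils.

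The arrays were comparable in range. Between 45.2% and 45.5% of the probe sets of each array lay above a log2 intensity of 4, the limit used here for a signal above background. Arrays of one cell type correlated at 0.985 to 0.997 (Pearson, across the 18640 kept probe sets) and arrays of different types at 0.797 to 0.813. MSC 2 and NCSC 3 stood apart within their groups: MSC 2 had 2.95% and 2.85% of probe sets more than 2-fold from MSC 1 and MSC 3, against 0.52% between those 2, and NCSC 3 had 4.93% and 4.73% more than 2-fold from NCSC 1 and NCSC 2, against 0.456%. The crest markers separated the cell types. Of 10 crest and Schwann cell markers with a probe set, 9 were above the limit on all NCSC arrays and 2 on all MSC arrays, and the crest regulator Sox10 averaged 4.30 ± 0.46 on the log2 scale over the MSC arrays and 12.84 ± 0.23 over the NCSC arrays (SD, n = 3 each). The mesenchymal markers did not separate them in 1 direction: of 8 kept, 4 were higher and 4 lower in NCSC. The growth factor receptor Pdgfra was at 9.61 ± 0.35 in MSC and 6.44 ± 0.47 in NCSC, whereas Nt5e, which encodes CD73, was at least 22.8-fold higher in NCSC and below the limit on all MSC arrays, and Eng, which encodes CD105, rose by 4.69 on the log2 scale. Nt5e and Eng are named after their values were seen.

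S100 genes split into 3 kinds of pattern. S100a1, S100a10 and S100a13 were lower in NCSC and S100a16 was higher, by 1.44-fold to 1.98-fold over the called probe sets whose means were above the limit in both cell types. S100a4 and S100a6 were bright on every array and differed little. S100b was above the limit only on NCSC 1 and NCSC 2, and S100a3 on no array. Of the 13 probe sets 10, from 6 genes, passed the filter on low values (log2 above 4 on at least 3 of the 6 arrays), and 8 of them, from 4 genes, were called between NCSC and MSC (limma, Benjamini-Hochberg adjusted p under 0.05 over all kept probe sets). By gene, 1 member was higher and 3 were lower. Of all kept genes, each by its brightest probe set, 62.9% were called, 34.3% higher and 28.7% lower. The 4 called of the 6 kept S100 genes are near that share. Among all kept probe sets 60.1% were called, 33% higher and 27.2% lower in NCSC. The share of the 10 S100 probe sets is to be read against that background, with S100a10, S100a1 and S100a16 counted by more than 1 probe set each. None of the 10 reached 2-fold where both means were above the limit. The dimmer S100a1 probe set, with an NCSC mean below the limit, had only a bound of at least 1.6-fold. By fitted values, which include probe sets with a group below the limit, 28.2% of all kept probe sets were called at 2-fold or more. On that measure 1 of the 10 S100 probe sets was called at 2-fold or more, the dimmer one of S100a1. The median difference, NCSC minus MSC, was -0.56 on the log2 scale for the 10 S100 probe sets and 0.057 for all. S100a10, S100a1 and S100a16 enter that median by more than 1 probe set each. By brightest probe set the 6 genes differed by -0.98 (S100a1), -0.61 (S100a13), -0.60 (S100a10), -0.16 (S100a6), 0.22 (S100a4) and 0.81 (S100a16). The median over all kept genes was 0.056. In bulk samples, fewer cells expressing a gene and less RNA per cell cannot be told apart.

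**Figure D1:**
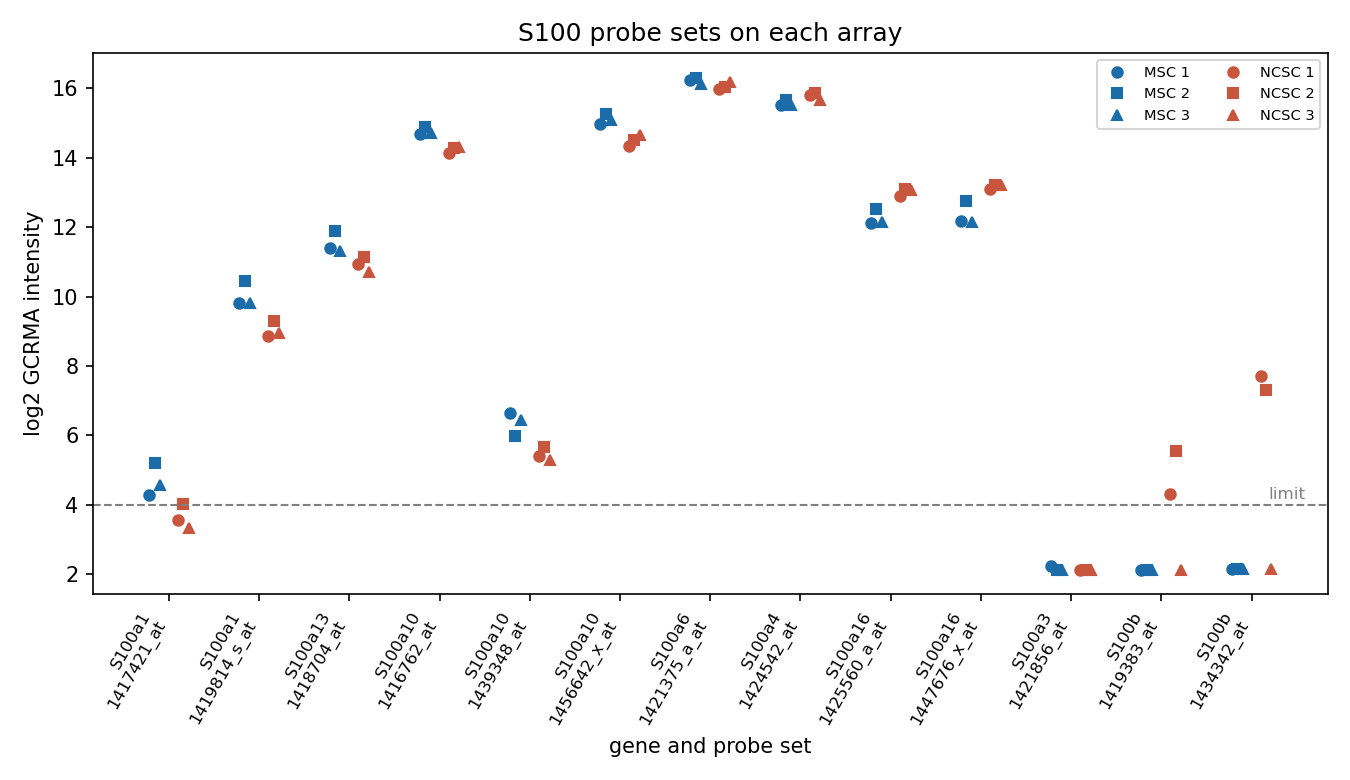
Log2 GCRMA intensity (vertical axis) of the 13 S100 probe sets (horizontal axis) on each of the 3 MSC arrays (blue) and 3 NCSC arrays (red), with 1 symbol shape per replicate number and the limit of 4 as a dashed line. S100b was above the limit on NCSC 1 and NCSC 2 and at its lowest value on NCSC 3 and all MSC arrays, and S100a3 was below the limit throughout.

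S100a1, known from heart and skeletal muscle, where it acts on calcium release and on the calcium pump of the sarcoplasmic reticulum, was lower in NCSC in both of its probe sets. In the brighter one, 1419814_s_at, the log2 intensities were 9.81, 10.44 and 9.82 on MSC 1, 2 and 3 and 8.87, 9.31 and 8.94 on NCSC 1, 2 and 3. Every NCSC array lay below every MSC array, and MSC 2 was the highest. The difference was -0.98 ± 0.21 (SE), or 1.98-fold (limma adjusted p = 0.00834). The other, 1417421_at, was close to background, at 4.28, 5.19 and 4.57 in MSC and 3.57, 4.01 and 3.32 in NCSC. S100a1 was by this probe set at least 1.6-fold lower. The limma adjusted p was 0.0188 for the fitted values and 0.0423 with values under 4 set to 4, as in the bound. The call was lost without NCSC 1 (0.0618) or NCSC 3 (0.0535) and without the filter on low values (0.0895). Without MSC 2 and NCSC 3 together the difference of this probe set was -0.64.

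S100a13, a protein that takes part in the unconventional release of FGF1 from cells, lies next to S100a1 on chromosome 3 and was also lower in NCSC. The log2 intensities were 11.40, 11.88 and 11.32 on MSC 1, 2 and 3 and 10.94, 11.15 and 10.69 on NCSC 1, 2 and 3. The groups did not overlap. Again MSC 2 was the highest MSC array and NCSC 2 the highest NCSC array, as in both S100a1 probe sets. The difference was -0.61 ± 0.19 (SE), or 1.52-fold (adjusted p = 0.033). This call depended on single arrays: the adjusted p was 0.0585 without MSC 1, 0.0633 without MSC 2, 0.0847 without NCSC 1, 0.0817 without NCSC 3 and 0.119 without the filter. Without MSC 2 and NCSC 3 together the difference was -0.32 (adjusted p = 0.0484).

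S100a1 and S100a13 moved in the same direction and are transcribed away from each other in the RefSeq annotation of GRCm38.p6, S100a1 on the minus strand and S100a13 on the plus strand. The 104 bases between the annotated starts of both genes (chr3:90514331-90514434, plus strand, reading towards S100a13) are shown because they lie upstream of both. Each start is that of the RefSeq promoter table, and other transcripts may start elsewhere.
S100a1-S100a13 interval: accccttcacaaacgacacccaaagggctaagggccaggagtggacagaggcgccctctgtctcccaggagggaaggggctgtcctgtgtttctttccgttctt
No base of it is in capitals: 5 motifs were searched on both strands in the 250 bases before each annotated start, and none occurs in this interval. The letters TATAAA stand for the TATA box, GGGCGG for the GC box bound by Sp1-type factors, TGAGTCA for the AP-1 site, CACGTG for the E-box and ACAAAG for the core motif of SOX factors. No 2 matches overlapped in the windows of the members. Of all 32851 windows of that length in the table, TATAAA was in 12.4%, GGGCGG in 32.7%, TGAGTCA in 4.46%, CACGTG in 6.02% and ACAAAG in 16.5%. RefSeq windows were matched for 8 of the 9 members.

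S100a10, or p11, whose EF-hands no longer bind calcium and which pairs with annexin A2 at the plasma membrane, was lower in NCSC in all 3 of its probe sets. In 1456642_x_at the log2 intensities were 14.98, 15.25 and 15.08 on MSC 1, 2 and 3 and 14.34, 14.52 and 14.65 on NCSC 1, 2 and 3, a difference of -0.60 ± 0.12 (SE, adjusted p = 0.00593). In 1416762_at they were 14.69, 14.88 and 14.72 against 14.14, 14.27 and 14.32, a difference of -0.52 ± 0.094 (adjusted p = 0.00394). In both, the NCSC arrays lay below the MSC arrays and varied by less than the gap between the groups' means. The dim probe set 1439348_at, at 6.65, 5.99 and 6.45 in MSC and 5.39, 5.67 and 5.30 in NCSC, differed by -0.91 ± 0.20 (adjusted p = 0.00798). This was the kept S100 probe set in which MSC 2 was the lowest and not the highest of the MSC arrays. The call held for all 3 probe sets in every setting in which they were tested.

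S100a16, a widely expressed member, was the S100 gene called higher in NCSC. In 1425560_a_at the log2 intensities were 12.11, 12.52 and 12.15 on MSC 1, 2 and 3 and 12.90, 13.10 and 13.07 on NCSC 1, 2 and 3, a difference of 0.77 ± 0.14 (SE), or 1.7-fold (adjusted p = 0.00364). In 1447676_x_at they were 12.17, 12.76 and 12.15 against 13.09, 13.21 and 13.21, a difference of 0.81 ± 0.18, or 1.75-fold (adjusted p = 0.00932). All NCSC arrays were above all MSC arrays in both probe sets. MSC 2 lay nearest to NCSC, whereas in S100a1, S100a13 and the bright S100a10 probe sets it lay farthest from them. Both calls held in every setting run. The annotation gives S100a16 a pair of starts, and the 250 bases before each are shown with any motif in capitals, since this was the member that rose.
S100a16 start 1, chr3:90537004-90537253, plus strand: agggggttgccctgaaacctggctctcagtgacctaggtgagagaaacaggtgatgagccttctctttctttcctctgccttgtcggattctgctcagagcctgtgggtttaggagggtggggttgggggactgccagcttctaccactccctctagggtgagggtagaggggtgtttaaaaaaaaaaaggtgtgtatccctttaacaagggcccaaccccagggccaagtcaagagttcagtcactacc
S100a16 start 2, chr3:90540896-90541145, plus strand: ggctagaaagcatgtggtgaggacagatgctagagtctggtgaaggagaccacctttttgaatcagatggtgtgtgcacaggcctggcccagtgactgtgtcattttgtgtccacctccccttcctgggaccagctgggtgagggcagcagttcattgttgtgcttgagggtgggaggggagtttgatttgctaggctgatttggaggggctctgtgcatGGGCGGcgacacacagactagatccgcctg
The capitals in the second window mark GGGCGG, which begins 30 bases before the start. The first window holds none of the 5 motifs.

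**Figure D2:**
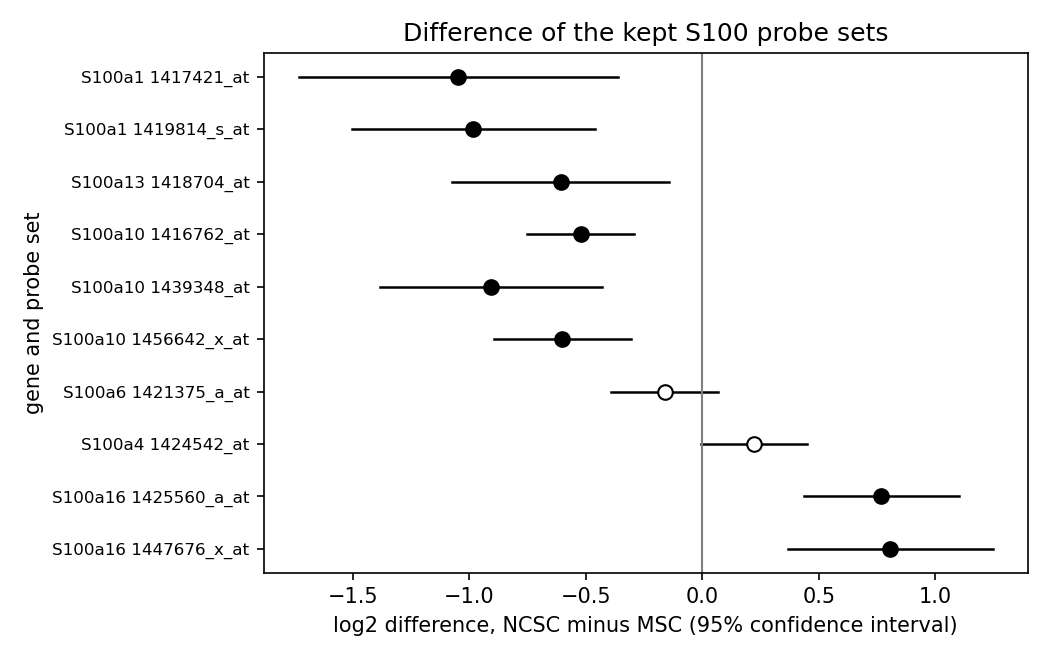
Log2 difference, NCSC minus MSC (horizontal axis), of the 10 kept S100 probe sets (vertical axis), with bars for the 95% confidence interval, filled points for called probe sets and open points for those not called. S100a1, S100a13 and S100a10 lie below 0, S100a16 lies above, and the intervals of S100a4 and S100a6 include 0. The NCSC mean of 1417421_at was below the limit, so its point is a fitted value.

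S100a4, also named fibroblast-specific protein, binds the non-muscle myosin heavy chain Myh9 and is linked to cell motility. The log2 intensities were 15.53, 15.65 and 15.51 on MSC 1, 2 and 3 and 15.81, 15.88 and 15.67 on NCSC 1, 2 and 3. The groups did not overlap, but NCSC 3 was only just above MSC 2. The difference of 0.22 ± 0.093 (SE, 95% confidence interval -0.0033 to 0.45) was not called (adjusted p = 0.0803). It was called in 5 of the 19 settings run: without NCSC 3 (0.0323), without MSC 2 and NCSC 3 together (0.0118), with array weights (0.00509), with a trended and robust fit (0.0235) and with added quantile normalization (0.0479). Over all settings the difference ran from 0.16 to 0.33 and the adjusted p from 0.00509 to 0.222.

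S100a6, or calcyclin, a member common in proliferating cells and fibroblasts, was at 16.25, 16.31 and 16.13 on MSC 1, 2 and 3 and at 15.98, 16.05 and 16.17 on NCSC 1, 2 and 3. NCSC 3 was above MSC 3, so the groups overlapped. The difference of -0.16 ± 0.094 (95% confidence interval -0.39 to 0.068) was not called (adjusted p = 0.184) in this or any other of the settings run. The highest value of the whole table was 16.83, so that S100a6 lay near the top of the scale, where array signal can be compressed. Whether that limited its difference was not tested. The motif TATAAA begins 31 bases before the annotated start of S100a4, and the window of S100a6 holds none of the 5 motifs. Among the kept S100 probe sets 9 of 10 had no overlap between the groups, compared with 68.4% of all kept probe sets. Several of the 10 belong to the same gene. By brightest probe set, S100a6 was the only kept S100 gene whose groups overlapped, where 71.2% of all kept genes had no overlap.

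S100b, the glial member, was detected in part of the NCSC arrays. In 1434342_at the log2 intensity was 7.72 on NCSC 1 and 7.29 on NCSC 2, but 2.15 on NCSC 3, the same value as on MSC 1, 2 and 3. In 1419383_at it was 4.30 on NCSC 1 and 5.54 on NCSC 2, and 2.12, the floor of the table, on NCSC 3 and on all MSC arrays. Both probe sets thus placed NCSC 3 with MSC and not with the other NCSC arrays. Neither passed the filter, since only 2 arrays were above the limit. By the group means of 1434342_at S100b was at least 3.29-fold higher in NCSC, and the bound was 11.3-fold without NCSC 3, 1.65-fold without NCSC 1, 1.91-fold without NCSC 2 and 1.64-fold with a limit of 5 in place of 4. For 1419383_at the NCSC mean of 3.99 was itself under the limit, so this probe set gave no bound. Tested without the filter, neither probe set was called (limma adjusted p = 0.247 and 0.28). With values under 4 also set to 4, an alternative chosen after seeing the data, the differences were 2.34 ± 1.13 (SE, adjusted p = 0.272) and 0.61 ± 0.45 (0.555). Both were called without the filter and without NCSC 3 (0.000859 and 0.0253), but that array was left out after its S100b values were seen and the MSC arrays lay at the lowest value without spread, so these p-values support nothing here.

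Most crest and Schwann cell markers of NCSC 3 were near those of the other NCSC arrays. Relative to the mean of NCSC 1 and NCSC 2, the kept markers Sox10, Sox2, Foxd3, Erbb3, Cdh19, Mbp, Pmp22 and Ngfr differed on NCSC 3 by -0.76 (Erbb3) to 0.90 (Ngfr) on the log2 scale, and Sox10 by -0.34. The exception was Fabp7, a lipid-binding protein of immature glia, at -3.92. S100b lay at its lowest value on NCSC 3 in both probe sets, so no size is given for its difference. The markers beyond Sox10 are named here after their values were seen. The summed intensity of the 10 markers with a probe set was 46398 on NCSC 3 against 53667 and 59934 on the other NCSC arrays. The source of the lower S100b signal of NCSC 3 was not tested.

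The 250 bases before the annotated S100b start (chr10:76253586-76253835, GRCm38.p6, plus strand) are shown because S100b was the member with the greatest contrast between arrays.
S100b: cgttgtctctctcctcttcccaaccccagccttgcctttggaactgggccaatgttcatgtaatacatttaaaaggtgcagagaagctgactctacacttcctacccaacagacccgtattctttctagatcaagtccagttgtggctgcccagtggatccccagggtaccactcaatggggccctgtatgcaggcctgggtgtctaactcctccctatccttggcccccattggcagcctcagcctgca
None of the 5 motifs, the SOX core included, occurs in this window, hence the absence of capitals. Sequence beyond it was not examined.

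Genes with an array profile like that of S100b were sought among the 10501 genes with a kept probe set, by the Euclidean distance of centred log2 values over the 6 arrays to 1434342_at. The nearest were Tril, a membrane protein that modulates Toll-like receptor signalling, at a distance of 1.93, the potassium channel Kcna6 at 2.12, the glial potassium channel Kcnj10 at 2.13, the sodium leak channel Nalcn at 2.53 and Lingo3 at 2.65. Each was lower on NCSC 3 than on NCSC 1 and NCSC 2, Tril at 4.35 against 7.98 and 8.04, and Kcnj10 at 5.31 against 8.34 and 7.91. All 5 were above the limit on NCSC 3. For Tril, Kcnj10, Nalcn and Lingo3, below the limit on all MSC arrays, the filter on low values required this. It is therefore no finding about these genes beside S100b, which did not pass that filter. The likeness rests on 6 arrays of 2 cell types and is a description.

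**Figure D3:**
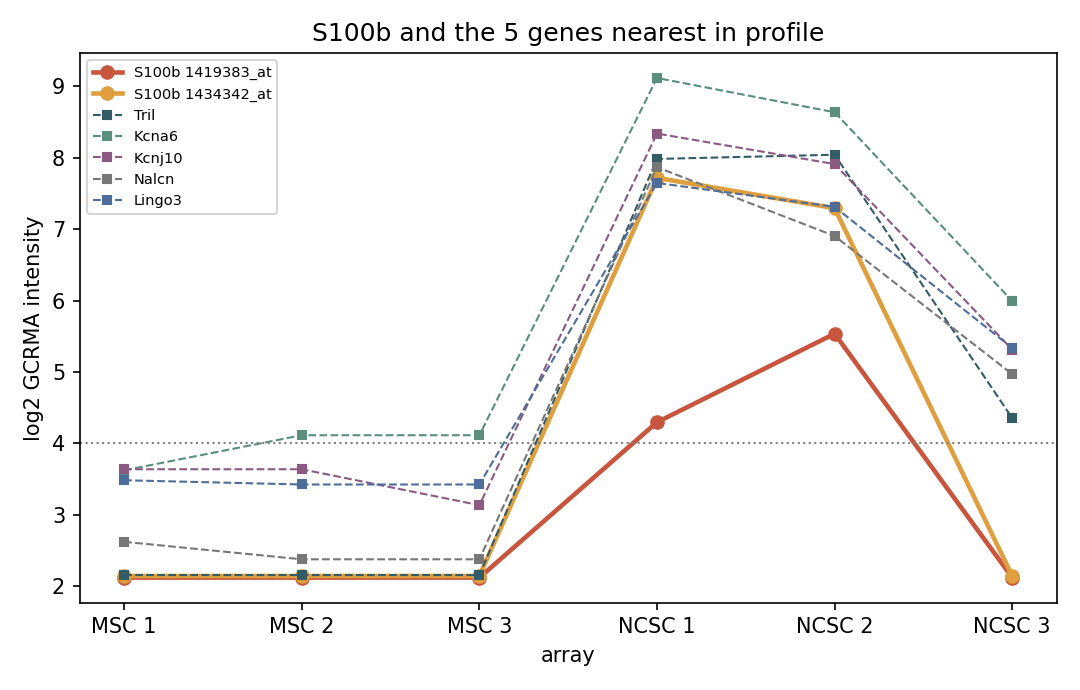
Log2 GCRMA intensity (vertical axis) on each of the 6 arrays (horizontal axis) for the S100b probe sets (thick lines) and the 5 genes nearest in profile to 1434342_at (dashed lines), with the limit of 4 dotted. S100b returned to its lowest value on NCSC 3, where Tril was at 4.35 and Kcna6 at 5.99.

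S100a3, a protein of the hair cuticle, was between 2.12 and 2.24 on all 6 arrays and did not pass the filter. The probe set annotated jointly to S100a11, its pseudogene S100a11-ps and Gm12854 was at 14.96, 14.91 and 14.92 on MSC 1, 2 and 3 and at 14.11, 14.08 and 14.10 on NCSC 1, 2 and 3. All 3 NCSC arrays were lower, with a difference of means of -0.84, which cannot be assigned to one of these genes and was left out of the fit. Other S100 genes were not detected. All 6 with a probe set, S100a5, S100a7l2, S100a8, S100a9, S100a14 and S100g, were below the limit on every array, with 2.97 for S100a5 on MSC 1 as the highest value. Of 9 neutrophil markers, S100a8 and S100a9 among them, 8 were likewise under the limit on all arrays. The exception was the protease Mmp9, which is not specific to neutrophils.

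Annexins, calcium-dependent membrane-binding proteins that form complexes with S100 dimers, were mostly not called. Of 12 listed annexins 11 had a probe set and 8 were kept, each taken by its brightest probe set. Of these 1 was higher, 1 lower and 6 not called, where 62.9% of the kept genes were called, 34.3% higher and 28.7% lower. Anxa2, the partner of S100a10, was at 15.04, 15.15 and 15.02 on MSC 1, 2 and 3 and at 15.10, 15.09 and 15.22 on NCSC 1, 2 and 3. The groups overlapped and the difference was 0.066 ± 0.085 (95% confidence interval -0.14 to 0.27, adjusted p = 0.529), so a fall of the size seen for S100a10 lay outside the interval. Anxa1, a partner of S100a11, differed by -0.099 ± 0.086 and Anxa6 by -0.074 ± 0.13, both not called, although Anxa6 was called lower with array weights (-0.22) and without MSC 2 and NCSC 3 together (-0.25). Anxa4 was counted as not called by its brightest probe set (-0.38 ± 0.22, adjusted p = 0.173), while its other 2 were called lower, at -0.71 (0.0405) and -0.83 (0.0249). Anxa5, known for binding phosphatidylserine, rose by 0.60 ± 0.10 and Anxa3 fell by 0.53, each called.

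Intracellular partners of S100 proteins differed by gene. Of 32 listed genes with a probe set 22 were kept, and 10 were higher, 4 lower and 8 not called, close to the 62.9% called among all 10501 kept genes, with a median difference of 0.11 against 0.056. The giant scaffold Ahnak, which binds the complex of S100a10 and annexin A2, differed by -0.31 ± 0.11 in its brightest probe set (adjusted p = 0.0488). That call was lost in 9 of the settings run, among them each omission of a single array other than NCSC 3. Its other probe sets differed by -1.35 ± 0.16 and -1.27 ± 0.26, both called. Cacybp, named for its binding of S100a6, differed by 0.078 ± 0.078 and was not called. Sugt1, another S100a6 partner, differed by -0.12 ± 0.085 in its brightest probe set, not called, and by 0.67 ± 0.11 in the other, called.

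Non-muscle myosin heavy chains, to which S100a4 binds, did not move together. Myh9, the main target of S100a4, differed by -0.074 ± 0.096 in its brightest probe set (adjusted p = 0.529), and of its other 4 probe sets 1 was called, at -0.33. Myh10 was at 13.76, 13.64 and 13.73 on MSC 1, 2 and 3 and at 6.38, 6.06 and 7.60 on NCSC 1, 2 and 3, a difference of -7.03 ± 0.39 (adjusted p = 2.85e-05). Myh14 was at least 20-fold higher in NCSC, at 8.90, 8.49 and 8.12 against 3.68, 4.54 and 3.68 in MSC. The ubiquitin ligase Mdm2 fell by 1.40 and the tumour suppressor Dlc1 by 0.89 on the log2 scale, while the kinases Stk38, which S100b binds, and Stk38l rose by 0.99 and 1.11. For Stk38l the other probe set, at 0.12, was not called. The potassium channel Kcnk3, carried to the membrane by S100a10, differed by 1.40 ± 0.48, but was not called when any single array other than NCSC 2 or NCSC 3 was left out, and differed by 0.87 without NCSC 3.

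**Figure D4:**
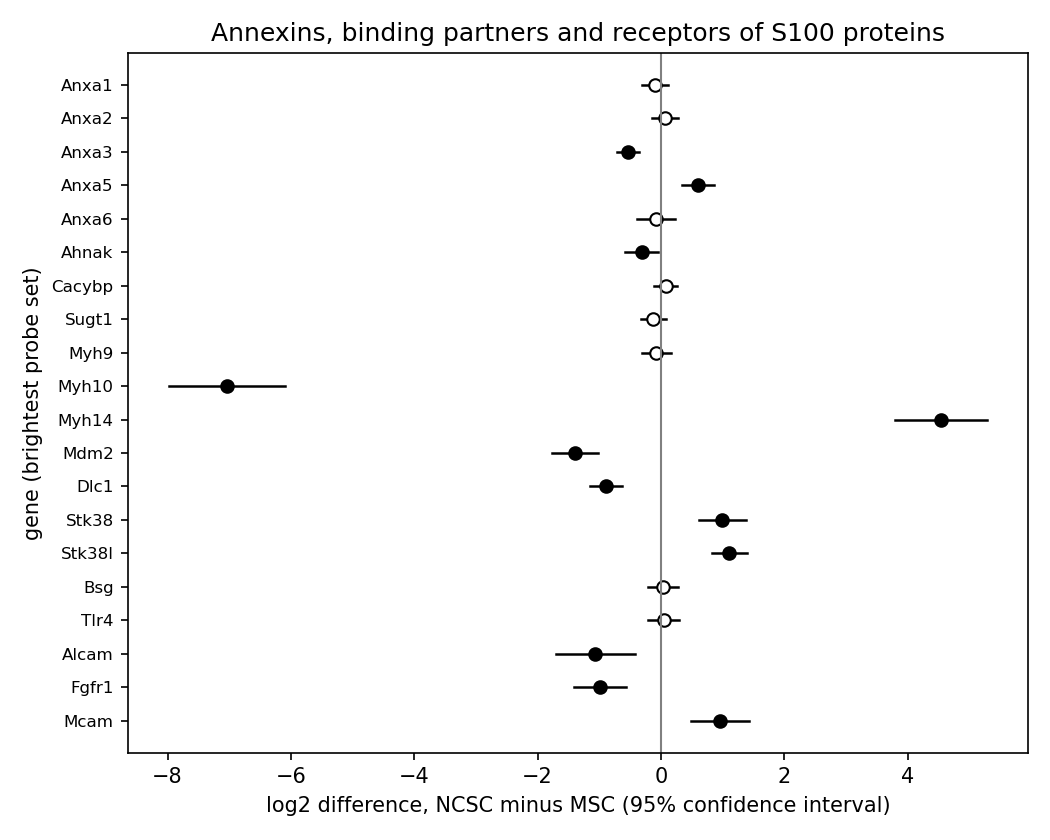
Log2 difference, NCSC minus MSC (horizontal axis), of 20 annexin, partner and receptor genes named in the text, by brightest probe set (vertical axis). Bars give the 95% confidence interval, with filled points for called genes and open points for those not called. Anxa4, Ager, Kcnk3, Egfr and Cd68 are not plotted. Anxa1, Anxa2, Anxa6, Cacybp, Sugt1, Myh9, Bsg and Tlr4 were not called, and of the genes plotted Myh10 has the lowest and Myh14 the highest difference, the latter a fitted value with the MSC mean below the limit.

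Receptors through which extracellular S100 proteins are known to act were in part below the limit. Ager, which encodes RAGE, did not exceed 2.52 on any array, below the limit. Of 10 listed genes 8 were kept, with 2 higher, 3 lower and 3 not called, a share near the 62.9% called among all kept genes. Tlr4, a receptor for S100a8 and S100a9, differed by 0.045 ± 0.10 and basigin (Bsg) by 0.035 ± 0.097, neither called by its brightest probe set, and the sign of both depended on the scaling, at -0.018 and -0.028 with arrays centred on their medians. Of the other 2 Tlr4 probe sets, 1 was called lower (-0.45, adjusted p = 0.0256) and the other was not called (-0.048). The adhesion receptor Alcam fell by 1.06 in its brightest probe set (adjusted p = 0.0137), a call lost without NCSC 2 (0.0527) and without the filter (0.0704). The other Alcam probe sets differed by -0.97, -1.33 and -1.11 and were called in the fit reported. Fgfr1 fell by 0.99. The adhesion molecule Mcam rose by 0.96. Egfr fell by 1.36 in its brightest probe set and was at least 45.6-fold and 27.2-fold lower in the other 2, so its probe sets disagreed on the size. Cd68, a lysosomal protein typical of macrophages, was at least 27.9-fold higher in NCSC. Of 11 macrophage and blood cell markers, 6 were under the limit on all arrays, and the summed intensity of the list was 186 to 210 in MSC and 829 to 956 in NCSC. Its part in the S100 results was not tested.

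Other EF-hand proteins were called in both directions. Of 43 with a probe set 29 were kept, 9 of them higher, 11 lower and 9 not called, with a median difference of 0.039. Among all kept genes 62.9% were called, 34.3% higher and 28.7% lower. Sdf4 and Sri were counted as not called, although Sdf4 rose by 1.2 and 0.79 in its other probe sets and Sri by 0.58 in 1 of its other 2, all called. Neurocalcin (Ncald), a neuronal calcium sensor, was at least 14.2-fold higher in NCSC, and Tesc rose by 2.84 and the centriole protein Cetn2 by 0.93. For Tesc MSC 1 was below the limit, at 3.13, and the MSC mean of 4.33 was close to it, so the size of its rise is uncertain. The mitochondrial protein Efhd1 was at least 18.2-fold higher, at 9.62 and 9.52 on NCSC 1 and NCSC 2 and 5.43 on NCSC 3, and the bound was 47.4-fold without NCSC 3, 11.1-fold without NCSC 1 and 11.5-fold without NCSC 2. It thus shared with S100b the lower signal of NCSC 3. The calmodulin-like Calml4 was at least 19.6-fold lower, and the calcium sensors Ncs1 and Hpcal1 fell by 2.35 and 0.82 and the protease Capn1 by 1.27.

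MSC 2 was the highest MSC array on 9 of the 10 kept S100 probe sets, compared with 33.1% of all kept probe sets. Its excess over the mean of MSC 1 and MSC 3 was 0.63 and 0.77 in the S100a1 probe sets, 0.52 in S100a13, 0.39 and 0.60 in S100a16, 0.17 and 0.22 in the bright S100a10 probe sets, 0.13 in S100a4 and 0.12 in S100a6. NCSC 3 was the lowest NCSC array on 4 of the 10, compared with 43.1% of all.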

How the data were processed

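Total RNA of the 6 samples was hybridised to Affymetrix arrays. The deposited values were probe set intensities, made by the authors with GCRMA (version not given in the sources used here), per the submitters' processing notes. GCRMA models background from probe sequence, makes the arrays' distributions alike and combines all probes of a set into 1 value. The linear scale was read from the values, whose floor is 2.12 after log2. No array was imputed or dropped.

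The array has 45101 probe sets. The annotation gives 34945 a single gene and 932 more than 1; 9160 are unnamed there and 64 are controls. Log2 values above 4 on at least 3 arrays kept 18640 probe sets of 10501 genes. All kept probe sets entered 1 limma model (version 3.58.1, under R 4.3.3) of cell type with no covariate, and its moderated statistic for NCSC minus MSC was taken as two-sided, adjusted by Benjamini-Hochberg and called under 0.05. The fit was tested on simulated data. Where the dimmer group's mean was at or under 4, the fold is a lower bound with its arrays under 4 set to 4. For lists, each gene was taken by its brightest kept probe set. The number of arrays limits the precision.

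The members and lists were chosen with earlier results of these data known. The genes named were all members, all other S100 genes, fixed partners, and up to 4 called and separated genes per direction and list with the most extreme differences. Deviations of arrays sharing a replicate number correlated at -0.094, 0.066 and 0.044. These values gave no sign of pairing by replicate number, but so few arrays per group cannot exclude it. With the replicate number as a block in the fit, the adjusted p fell for S100a1 and S100a13. It rose for S100a10, S100a16, S100a4 and S100a6. Whether the numbers pair the samples is therefore not settled. No genome build is named by the files; promoter coordinates are those of RefSeq GRCm38.p6.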

Additional observations from a re-analysis of the deposited data

How the results depend on the processing

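The calls of S100a10, S100a16 and the brighter S100a1 probe set kept their direction and their side of the threshold in every setting in which they were tested, and no S100 difference changed sign. S100a13 was called in 14 of 19 settings, the dimmer S100a1 probe set in 13 of 16, S100a4 in 5 of 19 and S100a6 in none. The members called higher in NCSC numbered 2 in place of 1 with a trended and robust fit, with array weights, with added quantile normalization, and without MSC 2 and NCSC 3 together, through S100a4, and 1 to 2 when single arrays were left out. With 1 probe set per gene, 6731 genes were called, 3672 higher and 3059 lower, and with the mean of the probe sets 6756, 3706 higher and 3050 lower, against 11211 probe sets (6146 and 5065), because fewer features were tested.

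With the replicate number as a block, 10336 probe sets were called, and S100a4, S100a6 and the called members kept their side of the threshold; Ahnak (adjusted p = 0.12) and Chtop (0.0633) lost theirs. Among genes that are no members, the differences that changed sign were Myh9 with array weights (0.0075) and without MSC 2 and NCSC 3 together (0.021), Tlr4 with quantile normalization (-0.013), centred arrays (-0.018), the mean of its probe sets (-0.15) or single arrays left out (-0.015 to 0.13), Bsg with centred arrays (-0.028) or single arrays left out (-0.026 to 0.087), and Sugt1 with the mean of its probe sets (0.27, adjusted p = 0.0457). All were uncalled in the fit reported. The cause was not tested. Signal over background limits S100a3, below the limit on all arrays, S100b, below it on all MSC arrays and NCSC 3, and the dimmer S100a1 probe set, close to it. The S100b bound fell from 3.29-fold to 1.64-fold with a limit of 5.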

Other observations

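All members but S100b, which lies on chromosome 10, are on chromosome 3 in the RefSeq annotation. From S100a1 to S100a9 the annotation places 12 S100 genes side by side with no other protein-coding gene between them. In that order the lower S100a1 and S100a13 come first, then S100a14, not detected, and S100a16, the member that rose. Next come S100a3, not detected, S100a2, without a probe set annotated to it alone, and S100a4, not called. S100a5, not detected, and S100a6, not called, are next. Beyond S100a9, S100a7l2 follows after 1 other protein-coding gene, and S100a11 and S100a10, neighbours of each other, after 54 more.

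Of 26 listed genes of the epidermal differentiation complex and its flanks with a probe set, 19 were under the limit on all arrays and 7 were kept, 4 of them higher, 1 lower and 2 not called in NCSC. Among all kept genes 62.9% were called, 34.3% higher and 28.7% lower. Snapin, a protein of vesicle fusion, rose by 1.38 ± 0.17 (SE, limma adjusted p = 0.000738), Ints3 by 0.82 ± 0.095 (0.000612) and the zinc transporter Slc39a1 by 0.63 ± 0.095 (0.00185). Chtop differed by 0.34 ± 0.097 (0.0223) but lost its call when MSC 2 (0.0509), MSC 3 (0.0694) or NCSC 2 (0.0584) was omitted, and under the replicate block, and its other probe set (0.23) was not called. Crct1, with an NCSC mean under the limit, was at least 1.19-fold lower, and not called with values under 4 set to 4 (0.0733).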
